A study of Xenopus laevis with 18 samples.

Results

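The posterior Hox genes are the Hox genes of paralog groups 9 to 13, which lie at one end of each Hox cluster. They were chosen by symbol, as every probe set whose annotated gene is hoxa, hoxb, hoxc or hoxd followed by a number from 9 to 13. The rule found 6 of 23630 probe sets, 1 for each of 6 genes: hoxa9.S (Xl2.9560.1.A1_at), hoxb9 (Xl2.14563.1.S1_at), hoxd9 (Xl2.13343.1.A1_at), hoxc10.L (Xl2.21864.1.S1_at), hoxa11.S (Xl2.266.1.S1_a_at) and hoxd13.S (Xl2.21863.1.S1_at). The rule itself used no expression value, though the genes were chosen with earlier results of these data known. Xenopus laevis is an allotetraploid frog, and an ending of .L or .S on a symbol tells which subgenome, with long or short chromosomes, carries that copy. RefSeq lists 23 genes of groups 9 to 13 in assembly Xenopus_laevis_v10.1. The gene IDs of 4 of the probe sets are among them. The hoxb9 and hoxd9 probe sets have gene IDs outside that list and no copy in their names. In that annotation hoxa9.S and hoxb9 share an older synonym, so that the identity of the hoxa9.S probe set rests on the array's annotation. The gene annotated hoxa11.S is placed on chromosome 6L there, beside hoxa9.L and hoxa13.L.

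Whole embryos that had received Gam1 mRNA, 0.5 ng in 9.2 nL at the one-cell stage, were compared with embryos that had received water in the same way. Gam1 comes from an adenovirus and depletes the E1 enzyme of the SUMO pathway, so that less of the small protein SUMO is attached to other proteins. Both groups were sampled 9 h after fertilization at early gastrula, 13.5 h at late gastrula and 16.5 h at early neurula, with 3 biological replicates per group and stage, each a pool of 20 embryos, and 18 arrays in all. The control embryos received no RNA, so injected RNA and Gam1 cannot be told apart. Gam1 was injected as mRNA into the animal hemisphere, with no promoter or tissue restriction. In pools of whole embryos, fewer cells expressing a gene and less RNA per cell cannot be told apart.

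In vertebrate embryos Hox genes switch on in the order in which they stand along the chromosome, from group 1 toward group 13, and the later ones mark more caudal levels of the body. They begin in the ring of mesoderm around the blastopore during gastrulation and then extend into the posterior neural plate. The Cdx homeodomain proteins, together with Wnt, FGF and retinoic acid signals, are known to switch on posterior Hox genes in Xenopus, and Pbx and Meis proteins bind DNA together with Hox proteins.

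The arrays carry log2 expression values with the same median of 7.72 and the same lowest value of 2.07 on each array. A value near 2.07 is at the floor of the scale, and where 1 group is near it the size of a change is a lower limit. Changes are given only where the mean of at least 1 group reached 3, a limit set after the values had been seen. Levels of different probe sets are not set against each other, since probes differ in response. The number of arrays limits the precision. In every germ-layer marker list, each gene measured had a mean of at least 3 in at least 1 group at both later stages. Water replicate 1 and Gam1 replicate 1 of late gastrula were further along the developmental course than the other late gastrula arrays. On a scale where the water means of early gastrula and early neurula stand at 0 and 100% of the change over the 23604 probe sets outside the Hox genes, late gastrula arrays stood at 78.9%, 68.6% and 66.4% in Gam1 embryos and at 87.5%, 73.3% and 71.0% in water embryos, replicates 1 to 3.

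The posterior Hox genes were at or near the floor at early gastrula. By early neurula hoxa9.S, hoxb9, hoxd9 and hoxc10.L had risen in at least 1 of the 2 steps in both groups, hoxa11.S had risen in water embryos, and hoxd13.S had not left the floor. At early gastrula all 6 probe sets lay between 2.07 and 2.91 in Gam1 embryos and between 2.07 and 3.11 in water embryos. No member was lower in Gam1 embryos at an unadjusted p under 0.05 there, beside 0.284% of all probe sets, none was higher, beside 0.343%, and none passed after adjustment, beside 0.0%, and values at the floor have no order.

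**Figure D1:**
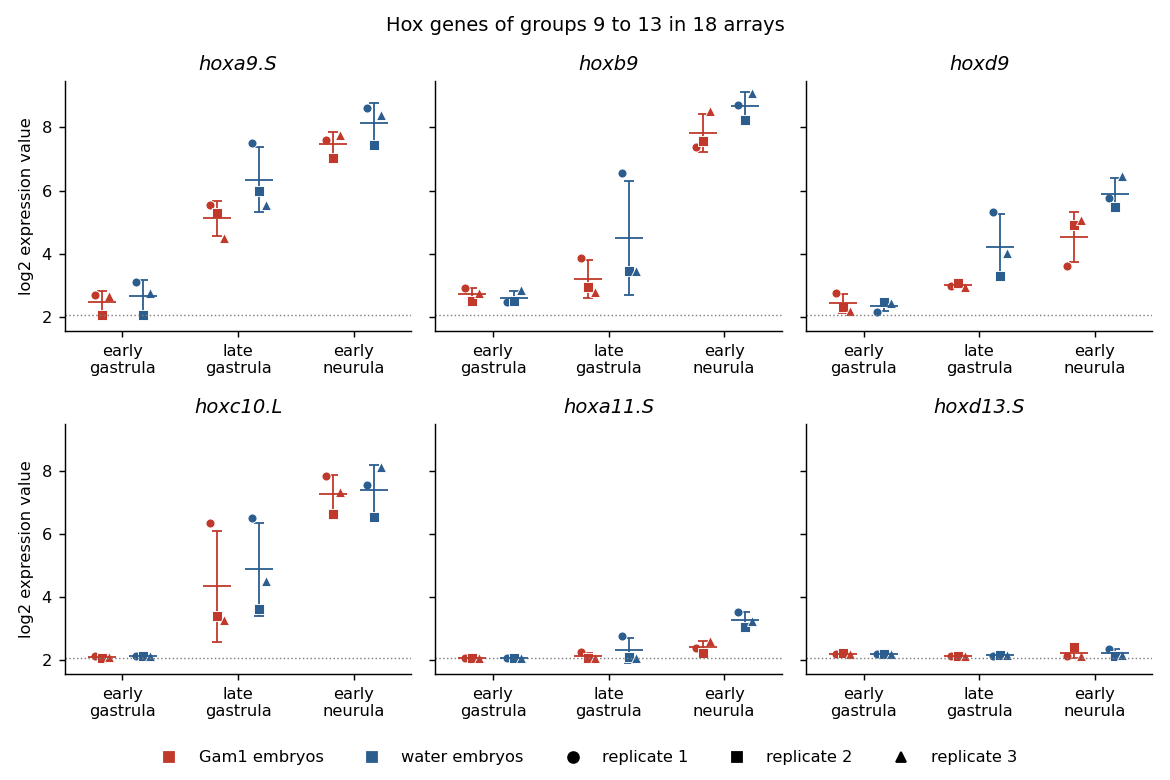
Log2 expression values of the 6 posterior Hox probe sets on the 18 arrays, with 1 symbol per array, horizontal bars for group means and vertical bars for SD (n = 3), and Gam1 embryos left of water embryos at each stage. The dotted line is the lowest value in the table. At late gastrula replicate 1 (circles) is the highest water array for hoxa9.S, hoxb9, hoxd9, hoxc10.L and hoxa11.S, and hoxd13.S stays at the floor.

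The course in water embryos was examined first for the order in which the genes appeared. Group 9 comes first among these genes along the cluster. Of the members, hoxa9.S had the smallest adjusted p at late gastrula. It averaged 6.34 ± 1.02 in water embryos at late gastrula and 2.65 ± 0.53 at early gastrula (SD, n = 3 each), a change of 3.69 ± 0.57 (SE, adjusted p = 0.0010, limma). All 3 late gastrula arrays were above all 3 early gastrula arrays. The hoxd9 probe set had 5.33, 3.29 and 4.03 at late gastrula in water embryos, against 2.16, 2.46 and 2.45 at early gastrula, a change of 1.86 ± 0.49 (adjusted p = 0.0140). For hoxc10.L, of the next group along the cluster, the values were 6.48, 3.63 and 4.50, against 2.15, 2.12 and 2.12, a change of 2.74 ± 0.71 (adjusted p = 0.0122). In hoxb9, a marker of spinal cord in Xenopus, only replicate 1 was far above early gastrula, with 6.57, 3.46 and 3.47, against 2.47, 2.50 and 2.85. Its change of 1.89 ± 0.79 did not pass (adjusted p = 0.0768), and without water replicate 1 of late gastrula it was 0.85 with an adjusted p of 0.0470. Thus 3 of 6 members were called higher at late gastrula than at early gastrula in water embryos, where 24.0% of all probe sets were. The calls did not follow the order of the groups, as hoxc10.L of group 10 was called and hoxb9 of group 9 was not. The order itself was not tested. With values under 3 set to 3 only hoxa9.S was called, and the adjusted p was 0.0817 for hoxd9 and 0.0686 for hoxc10.L.

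Between late gastrula and early neurula in water embryos, hoxb9 had the largest change among the members. It stood at 8.71, 8.24 and 9.09 at early neurula, 4.18 ± 0.79 above late gastrula (adjusted p = 0.0283). The early neurula arrays lay close together, while late gastrula replicate 1 stood well above the other two. The hoxa11.S probe set had 3.53, 3.06 and 3.25 at early neurula, against 2.78, 2.10 and 2.07 at late gastrula, and so had left the floor on all 3 arrays. This rise of 0.97 ± 0.20 was called (adjusted p = 0.0333). The changes of hoxa9.S (1.80 ± 0.57), hoxd9 (1.69 ± 0.49) and hoxc10.L (2.51 ± 0.71) had adjusted p-values of 0.0910, 0.0758 and 0.0678. Thus 2 of 6 members were called in the unpaired fit, beside 4.09% of all probe sets. With arrays paired by replicate number the members called were 4, hoxa9.S (adjusted p = 0.0364) and hoxc10.L (adjusted p = 0.0453) in addition, beside 6.83% of all probe sets. The calls in this step depended on single arrays. Leaving out water replicate 1 of late gastrula gave 5 calls, beside 6.42% of all probe sets, leaving out early gastrula replicate 2 gave 1, beside 3.44%, and leaving out any one of early gastrula replicates 1 or 3, late gastrula replicates 2 or 3, or early neurula replicates 1 or 3 gave 0, beside 0.567% to 2.36%. With values under 3 set to 3 hoxb9 alone was called, and the rise of hoxa11.S was 0.28.

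The most 5′ gene of the set, hoxd13.S, which in mouse patterns the digits and the genital tubercle, was not detected above the floor at any stage. It had 2.14, 2.42 and 2.14 in Gam1 embryos at early neurula, against 2.36, 2.15 and 2.16 in water embryos. No change is given for it.

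In Gam1 embryos 4 of the genes rose in 1 or both steps. At late gastrula hoxa9.S stood 2.65 ± 0.34 above early gastrula (adjusted p = 0.000475) and hoxc10.L 2.23 ± 0.78 (adjusted p = 0.0444), which made 2 of 6 members, beside 22.7% of all probe sets. The call of hoxc10.L was lost when any one of the Gam1 arrays of early gastrula or early neurula was left out, with adjusted p-values between 0.0565 and 0.0996, and with values under 3 set to 3 (adjusted p = 0.223). For hoxb9 the change was 0.48 ± 0.38 and for hoxd9 0.57 ± 0.36, with adjusted p-values of 0.329 and 0.224. From late gastrula to early neurula hoxa9.S rose by 2.35 ± 0.34 (adjusted p = 0.0108), hoxb9 by 4.62 ± 0.38 (adjusted p = 0.0020) and hoxd9 by 1.52 ± 0.36 (adjusted p = 0.0363), so that 3 of 6 members were called, beside 5.28% of all probe sets. The call of hoxd9 was lost on leaving out any one Gam1 array other than early neurula replicate 1, with adjusted p-values between 0.0520 and 0.118. The change of hoxc10.L was 2.92 ± 0.78 (adjusted p = 0.0508), and with paired arrays its adjusted p was 0.0290, which made 4 members, beside 9.12% of all probe sets. The hoxa11.S probe set stayed near the floor in Gam1 embryos, with 2.61 as its highest value, and no change is given for it.

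The comparison of Gam1 with water embryos at late gastrula asked whether the genes appeared at the same level in both groups. The group 9 genes had lower mean values in Gam1 embryos, by 1.21 to 1.29 on the log2 scale, but replicates varied widely and no member passed the unpaired test. The SEs given with the changes are of that test and hold the spread between replicates. With arrays paired by replicate number the SEs were 0.31 for hoxa9.S, 0.53 for hoxb9, 0.47 for hoxd9 and 0.28 for hoxc10.L. No member passed after adjustment in that fit either, beside 0.0% of all probe sets. The hoxa9.S values were 5.56, 5.29 and 4.51 in Gam1 embryos, against 7.50, 5.98 and 5.55 in water embryos. Each Gam1 array was below the water array of its own number, but the highest Gam1 array was just above the lowest water array. The change was -1.22 ± 0.60 (SE, n = 3 each), with an unadjusted p of 0.0961 and an adjusted p of 1.00 in limma.

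For hoxb9 the values were 3.88, 2.94 and 2.80 in Gam1 embryos, against 6.57, 3.46 and 3.47 in water embryos. The groups overlapped, and the change of -1.29 ± 0.95 rested mostly on replicate 1. The hoxd9 values were 2.99, 3.08 and 2.94 in Gam1 embryos, against 5.33, 3.29 and 4.03 in water embryos. Here the groups did not overlap, no Gam1 array was above 3.08, and the change was -1.21 ± 0.52 (unadjusted p = 0.0633). For hoxc10.L, a gene of caudal trunk levels, the values were 6.36, 3.39 and 3.26 in Gam1 embryos, against 6.48, 3.63 and 4.50 in water embryos. The groups overlapped over most of their range, and the change was -0.54 ± 1.15. The hoxa11.S probe set was above 2.10 only in replicate 1 of each group, at 2.25 in Gam1 embryos and 2.78 in water embryos.

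All 6 members were lower in Gam1 embryos in all 3 replicate pairs at late gastrula, which 22.0% of all probe sets were. In 2 of these, hoxa11.S and hoxd13.S, both means lay near the floor, and the differences of hoxd13.S were no larger than 0.0077. Those of hoxa11.S were -0.0278 in pair 2 and -0.0001 in pair 3. Values at the floor have no order, so the count of 6 rests in part on such values. The groups did not overlap for 2 members, hoxd9 and hoxd13.S, beside 5.21% of all probe sets. In the unpaired fit no member was lower at an unadjusted p under 0.05, beside 2.42% of all probe sets, and none after adjustment, beside 0.0%. Leaving out water replicate 1 or water replicate 2 of late gastrula let 1 member, hoxd9, pass unadjusted, beside 1.48% and 1.79% of all probe sets. With arrays paired by replicate number in limma hoxa9.S passed unadjusted (unadjusted p = 0.0216, adjusted p = 0.301), 1 of 6 members beside 7.76% of all probe sets. A limma fit over all 18 arrays, with each pair of arrays of 1 stage and replicate number as a block, called hoxa9.S (adjusted p = 0.0302), beside 2.2% of all probe sets. That fit assumes 1 spread of the differences within pairs for all stages. For hoxa9.S these differences were -0.42, 0.00 and -0.12 at early gastrula, replicates 1 to 3, and -1.94, -0.69 and -1.03 at late gastrula.

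**Figure D2:**
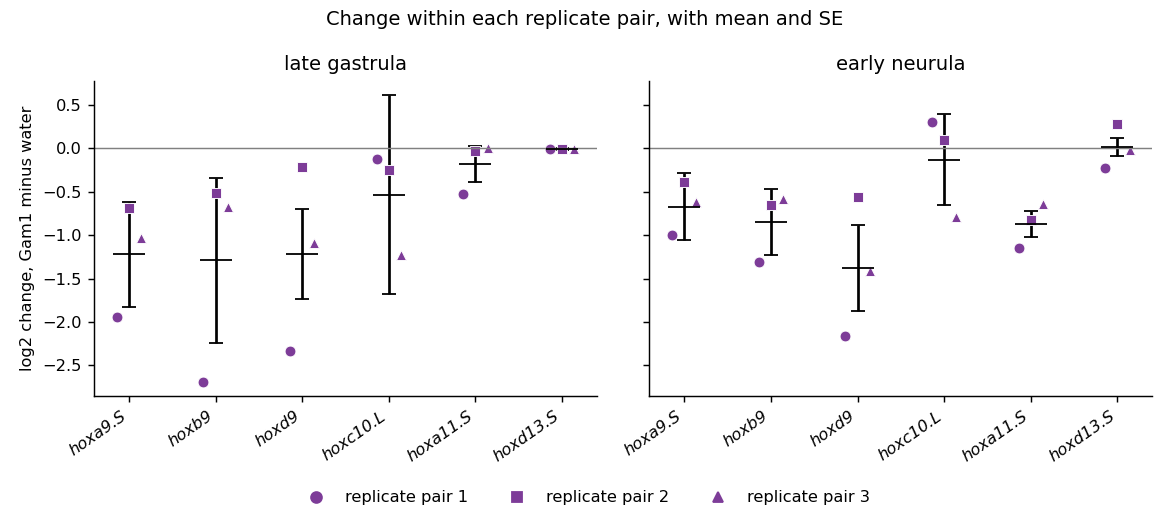
Log2 change of each posterior Hox probe set within each replicate pair, Gam1 minus water, at late gastrula and early neurula. Horizontal bars are means and vertical bars the SE of the unpaired limma fit (n = 3 each). All 18 points at late gastrula are below 0, though those of hoxd13.S and of hoxa11.S in pairs 2 and 3 come from values at the floor. Replicate pair 1 (circles) is the lowest for hoxa9.S, hoxb9, hoxd9 and hoxa11.S at both stages.

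Replicate pair 1 held the largest differences of the group 9 genes at late gastrula, of -1.94 for hoxa9.S, -2.69 for hoxb9 and -2.34 for hoxd9. In pair 2 these were -0.69, -0.51 and -0.21, and in pair 3 they were -1.03, -0.67 and -1.09. For hoxc10.L pair 1 held the smallest difference, of -0.13, and pairs 2 and 3 had -0.24 and -1.23. Pair 1 was also the most advanced along the course, as given above, and the gap in position between its water and Gam1 arrays was the widest of the 3 pairs. Without water replicate 1 alone, the unpaired changes were -0.64 for hoxa9.S, -0.25 for hoxb9 and -0.66 for hoxd9. Without both arrays of pair 1, the unpaired changes were all still below 0, with hoxa9.S at -0.86 and hoxd9 at -0.65, and 1 member, hoxb9 (-0.59), passed at an unadjusted p under 0.05, beside 2.28% of all probe sets. The part of the developmental position in these differences was not tested.

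At early neurula the group 9 genes and hoxa11.S were lower in Gam1 embryos in every replicate pair, while hoxc10.L and hoxd13.S were not. Of 6 members 4 were lower in all 3 pairs, beside 24.4% of all probe sets. The largest mean difference was that of hoxd9, which had 3.61, 4.90 and 5.06 in Gam1 embryos, against 5.78, 5.47 and 6.47 in water embryos. The groups did not overlap, and the change was -1.38 ± 0.49, that is 2.60-fold (unadjusted p = 0.0353, adjusted p = 0.691). In hoxa11.S the values were 2.38, 2.24 and 2.61 in Gam1 embryos, against 3.53, 3.06 and 3.25 in water embryos. Again the groups did not overlap, no Gam1 array was above 2.61, and the change was -0.87 ± 0.15 (unadjusted p = 0.0018, adjusted p = 0.296). With values under 3 set to 3 it was -0.28 (adjusted p = 0.814).

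The hoxb9 probe set had 7.39, 7.58 and 8.51 in Gam1 embryos, against 8.71, 8.24 and 9.09 in water embryos. Gam1 replicate 3 was above water replicate 2, so the groups overlapped, and the change was -0.85 ± 0.38 (unadjusted p = 0.0731). For hoxa9.S the values were 7.60, 7.04 and 7.77 in Gam1 embryos, against 8.61, 7.43 and 8.39 in water embryos. They overlapped through water replicate 2, and the change was -0.67 ± 0.39 (unadjusted p = 0.139). In hoxc10.L there were 7.83, 6.62 and 7.31 in Gam1 embryos, against 7.53, 6.53 and 8.10 in water embryos. Gam1 was higher in pairs 1 and 2 and lower in pair 3, and the change was -0.13 ± 0.52.

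In the unpaired fit 2 of 6 members, hoxd9 and hoxa11.S, were lower at an unadjusted p under 0.05, beside 3.22% of all probe sets, and none was after adjustment, beside 0.0%. The groups did not overlap for the same 2 members, beside 7.24% of all probe sets. Leaving out Gam1 replicate 1, water replicate 1 or water replicate 3 of early neurula left 1 member, beside 1.96% to 2.64% of all probe sets. Leaving out Gam1 replicate 3 gave 3 members, with hoxb9 in addition, beside 4.39%. Without water replicate 2 there were 3 as well, with hoxa9.S in addition, beside 3.2%. With paired arrays in limma 4 members passed unadjusted, hoxa9.S (unadjusted p = 0.0191, adjusted p = 0.236) and hoxb9 (unadjusted p = 0.0159, adjusted p = 0.232) in addition, beside 8.49% of all probe sets. The blocked fit over all stages called hoxa11.S (adjusted p = 0.0062), beside 3.47% of all probe sets. The differences of hoxa11.S within pairs 1 to 3 were 0.0113, 0.0021 and 0.0135 at early gastrula, where it sat at the floor. At early neurula they were -1.15, -0.82 and -0.64, and that fit takes 1 spread of such differences over all stages.

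No posterior Hox gene showed a Gam1 effect that differed between late gastrula and early neurula after adjustment, beside 0.00423% of all probe sets. At an unadjusted p under 0.05 there was 1, hoxa11.S, beside 0.808%. The differences of the 2 effects were 0.55 ± 0.69 for hoxa9.S, 0.44 ± 0.91 for hoxb9, -0.16 ± 0.64 for hoxd9 and 0.41 ± 1.10 for hoxc10.L. For hoxa11.S the difference was -0.68 ± 0.23, with an unadjusted p of 0.0102 and an adjusted p of 1.00, and both late gastrula means of this gene lay near the floor. These SEs are of the unpaired fit, hold the spread between replicates, and leave room for differences of a size like that of the effects themselves. With arrays paired by replicate number the SEs were 0.33 for hoxa9.S, 0.54 for hoxb9, 0.58 for hoxd9 and 0.36 for hoxc10.L. Again hoxa11.S alone passed unadjusted (unadjusted p = 0.0033, limma), beside 7.83% of all probe sets, and no member passed after adjustment, beside 0.106%. Against early gastrula, where the members lay at or near the floor in both groups, no difference of effects passed after adjustment, beside 0.00423% of all probe sets for late gastrula and 0.0466% for early neurula. At an unadjusted p under 0.05 no member differed for late gastrula in the unpaired fit, beside 1.76%, and 2 did for early neurula, hoxd9 (-1.45 ± 0.64, unadjusted p = 0.0401, limma) and hoxa11.S (-0.88 ± 0.23, unadjusted p = 0.0019), beside 3.09%. With arrays paired by replicate number in limma 2 members differed for late gastrula, beside 12.3% of all probe sets. These were hoxa9.S (unadjusted p = 0.0122, adjusted p = 0.276) and hoxb9 (unadjusted p = 0.0310, adjusted p = 0.358).

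**Figure D3:**
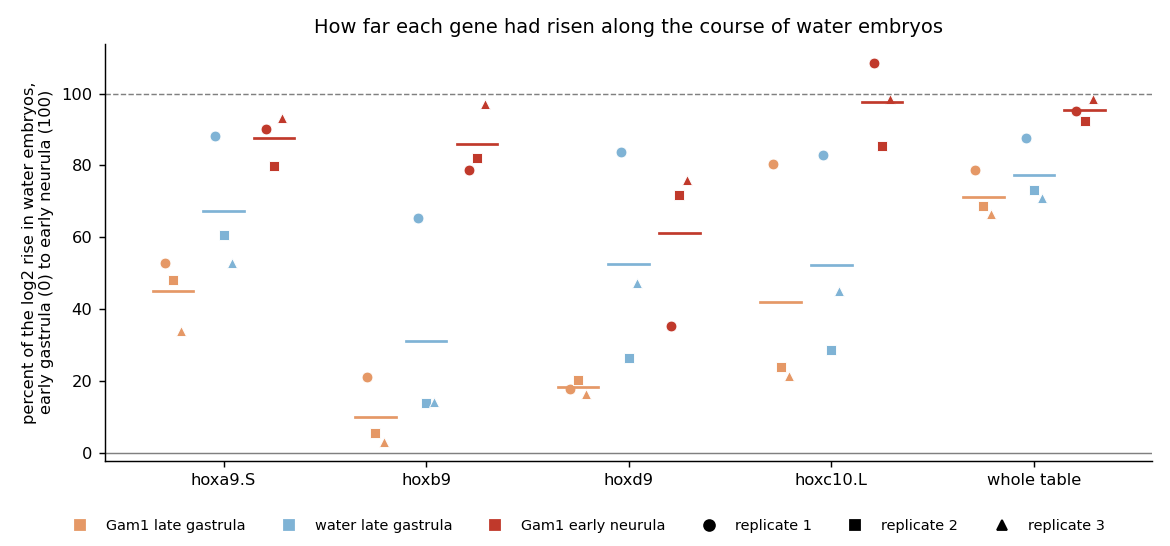
Position of each array along the log2 rise of each gene in water embryos, where 0 is the water mean at early gastrula and 100 the water mean at early neurula, in percent, with a bar for the mean of 3 arrays. The whole table is the same measure over the probe sets outside the Hox genes; at early neurula Gam1 arrays are near 100 for hoxc10.L and lowest for hoxd9.

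Set against the rise from early gastrula to early neurula in water embryos, Gam1 embryos at early neurula had reached 97.5 ± 11.5% of it for hoxc10.L, 87.8 ± 6.9% for hoxa9.S, 86.0 ± 9.9% for hoxb9 and 61.1 ± 22.3% for hoxd9 (SD, n = 3). The gap between hoxc10.L and hoxa9.S was smaller than the SD of hoxc10.L but larger than that of hoxa9.S. The means of hoxa9.S and hoxb9 lay within their SDs of each other. The values of hoxd9 ran from 35.4% to 76.1%. No share is given for hoxa11.S, whose Gam1 values lay near the floor. Over the table as a whole the same arrays stood at 95.1%, 92.4% and 98.4%. At late gastrula, hoxd9 had reached 18.2 ± 2.0% in Gam1 embryos and 52.5 ± 29.1% in water embryos, hoxb9 9.9 ± 9.7% in Gam1 embryos and 31.1 ± 29.6% in water embryos, and hoxa9.S 45.0 ± 9.9% in Gam1 embryos and 67.2 ± 18.6% in water embryos. These shares use the water means as the scale and are descriptions.

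The posterior genes were then set beside the rest of the Hox genes on the array. The anterior genes, of groups 1 to 5, pattern hindbrain and neck levels, and those of groups 6 to 8 pattern the trunk. All 5 anterior genes were lower in Gam1 embryos in all 3 pairs at late gastrula and at early neurula, with median changes of -0.88 and -1.25. All 7 trunk genes were too, with median changes of -1.36 and -0.56. Of all probe sets 22.0% were lower in all 3 pairs at late gastrula and 24.4% at early neurula. At late gastrula both means lay under 3 for 2 anterior genes, hoxa2.L and hoxb2.S, and 1 trunk gene, hoxb7.L, which the counts and medians include. The median over all probe sets was 5.74e-05 at late gastrula and -0.0023 at early neurula. Trunk genes include hoxc8.S, with a mean of 3.99 ± 1.06 in Gam1 embryos and 5.68 ± 1.21 in water embryos at late gastrula (-1.69 ± 0.81, unadjusted p = 0.0885), and hoxb7.S, with 3.79 ± 0.17 in Gam1 embryos and 5.15 ± 0.87 in water embryos (-1.36 ± 0.46, unadjusted p = 0.0285). The other hoxb7.S probe set had a change of -1.59 ± 0.67 there and did not pass unadjusted (unadjusted p = 0.0616, limma). Among anterior genes at early neurula, hoxb2.S averaged 4.42 ± 1.10 in Gam1 embryos and 6.38 ± 0.59 in water embryos (-1.96 ± 0.64, unadjusted p = 0.0263). No Hox gene of any group passed after adjustment in the unpaired limma fit. The blocked fit over all stages called 2 anterior and 4 trunk genes lower at late gastrula, beside 2.2% of all probe sets. At early neurula it called 3 anterior and 2 trunk genes lower, beside 3.47%. At an unadjusted p under 0.05, 1 anterior and 1 trunk gene were lower at late gastrula, beside 2.42% of all probe sets. At early neurula 3 of each were, beside 3.22%. The posterior genes hoxc10.L and hoxd13.S are the only Hox probe sets with a higher value in Gam1 embryos in some pair at early neurula. Whether the posterior group differs from the others was not tested.

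**Figure D4:**
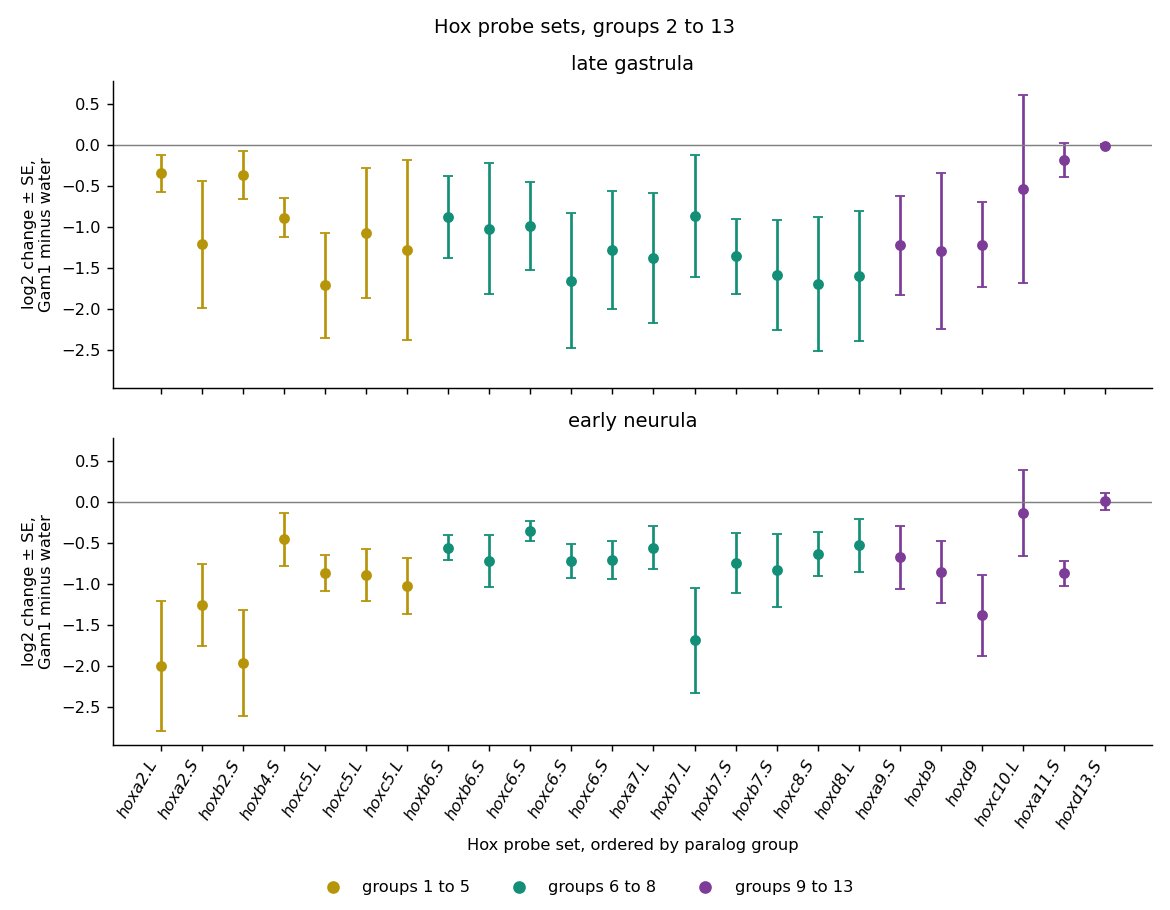
Log2 change, Gam1 minus water, with SE of the unpaired limma fit (n = 3 each) for every Hox probe set at late gastrula and early neurula, ordered by paralog group and colored by anterior, trunk and posterior groups. All means are below 0 apart from hoxd13.S at early neurula, which lies at the floor; genes with several probe sets appear once for each.

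The Cdx genes, activators of posterior Hox genes, had changes between -0.23 and 0.03 at late gastrula and early neurula. At late gastrula cdx1.S averaged 13.04 ± 0.19 in Gam1 embryos and 13.19 ± 0.25 in water embryos (-0.16 ± 0.16), cdx2.L 11.19 ± 0.21 in Gam1 embryos and 11.34 ± 0.31 in water embryos (-0.14 ± 0.19), and cdx4.L 11.82 ± 0.13 in Gam1 embryos and 12.05 ± 0.29 in water embryos (-0.23 ± 0.17). At early neurula their changes were 0.03 ± 0.17, -0.14 ± 0.10 and -0.04 ± 0.08. None passed at an unadjusted p under 0.05. Of the 18 posterior regulators measured, which hold homeobox, T-box, bHLH and zinc finger genes, 17 had lower means in Gam1 embryos at early gastrula. The median change there was -0.41, and both means lay under 3 for 3 of the 18. In all 3 pairs 11 were lower, beside 15.6% of all probe sets, and 1 was lower at an unadjusted p under 0.05, beside 0.284%. At late gastrula 3 were lower and 1 higher at that threshold, beside 2.42% and 1.97%, and at early neurula 2 were lower, beside 3.22%. Their median changes at these later stages were -0.19 and -0.02. The lower ones included mespa.L, a regulator of somite segmentation, at 8.50 ± 0.17 in Gam1 embryos and 9.18 ± 0.24 in water embryos at late gastrula (-0.69 ± 0.17, unadjusted p = 0.0094), and irx3.L, a neural plate homeobox gene, at 8.70 ± 0.15 in Gam1 embryos and 9.19 ± 0.10 in water embryos (-0.50 ± 0.12, unadjusted p = 0.0090).

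At an unadjusted p under 0.05, 7 of 26 Wnt and FGF pathway genes were lower and 1 higher at late gastrula, beside 2.42% and 1.97% of all probe sets. At early neurula 4 were lower at that threshold, beside 3.22%. The median changes at these stages were -0.20 and -0.16. Already at early gastrula 20 of the 26 had lower means and 6 higher, and both means lay under 3 for 3 of them. There 14 were lower in all 3 pairs, beside 15.6% of all probe sets, and 1 was higher, beside 15.5%. The ligand wnt8b.S was near the floor in Gam1 embryos at early neurula, at 2.23 ± 0.07, and at 3.38 ± 0.12 in water embryos (-1.15 ± 0.07, adjusted p = 0.0912). The ligand fgf3.L averaged 8.12 ± 0.25 in Gam1 embryos and 8.94 ± 0.32 in water embryos (-0.82 ± 0.22, unadjusted p = 0.0130) at early neurula, and the receptor fgfr4.L 10.69 ± 0.04 in Gam1 embryos and 11.20 ± 0.24 in water embryos at late gastrula (-0.51 ± 0.13, unadjusted p = 0.0099).

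In the retinoic acid pathway 5 of 16 genes were lower at late gastrula at an unadjusted p under 0.05, beside 2.42% of all probe sets. At early neurula 2 were, beside 3.22%. None was higher at either stage, beside 1.97% and 3.44%, and the median changes were -0.22 and -0.04. The gene of the retinoic acid degrading enzyme cyp26c1.S averaged 6.90 ± 0.32 in Gam1 embryos and 8.56 ± 0.28 in water embryos at late gastrula (-1.66 ± 0.25, unadjusted p = 0.000965, adjusted p = 0.458). The gene of the enzyme that makes the precursor retinal, rdh10.L, averaged 10.99 ± 0.09 in Gam1 embryos and 11.42 ± 0.03 in water embryos (-0.43 ± 0.07, unadjusted p = 0.0013), and the receptor rarg.S 11.91 ± 0.04 in Gam1 embryos and 12.12 ± 0.06 in water embryos (-0.21 ± 0.06, unadjusted p = 0.0134).

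The TALE homeobox class holds the Hox cofactors Pbx, Meis and Pknox and the Tgif repressors. Of 9 genes of this class 1 was lower at late gastrula, beside 2.42% of all probe sets, and 2 at early neurula, beside 3.22%, at an unadjusted p under 0.05. These were meis3.L at both stages, with 10.20 ± 0.33 in Gam1 embryos and 10.82 ± 0.18 in water embryos at early neurula (-0.62 ± 0.20, unadjusted p = 0.0225), and pbx2.L at early neurula. Among 27 Polycomb and Trithorax genes, whose products keep Hox genes silent or active, 0 passed at an unadjusted p under 0.05 at either stage, with median changes of -0.03 and -0.10. At the other end of the embryo, of 17 genes of head and forebrain 11 were lower in all 3 pairs at late gastrula, beside 22.0% of all probe sets. There 5 were lower at an unadjusted p under 0.05, beside 2.42%. They included fezf2.L, a forebrain zinc finger gene, at 6.05 ± 0.36 in Gam1 embryos and 8.04 ± 0.66 in water embryos (-1.98 ± 0.41, unadjusted p = 0.0041). Another was rax.S, an eye field gene, at 2.93 ± 0.85 in Gam1 embryos and 5.55 ± 0.92 in water embryos (-2.62 ± 0.63, unadjusted p = 0.0078). At early neurula 8 were lower and 3 higher in all 3 pairs, beside 24.4% and 22.6%. At an unadjusted p under 0.05, 0 were lower and 0 higher there, beside 3.22% and 3.44%. No gene of these 6 lists passed after adjustment in the unpaired limma fit. The blocked fit over all stages called 2 posterior regulators, 3 Wnt and FGF genes, 1 retinoic acid gene and 3 head genes lower at late gastrula, beside 2.2% of all probe sets. At early neurula it called 3 Wnt and FGF genes, 2 retinoic acid genes and 2 head genes lower and 2 posterior regulators higher. Of all probe sets it called 3.47% lower and 4.53% higher there. It called 0 TALE genes and 0 Polycomb or Trithorax genes at either stage.

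Markers of the tissues that express posterior Hox genes had lower means at late gastrula as well. All 11 neural plate markers had lower means in Gam1 embryos, with a median change of -0.25, 7 of them in all 3 pairs, beside 22.0% of all probe sets. Their summed level, as log2, ran from 15.53 to 15.73 in Gam1 embryos and from 15.67 to 15.92 in water embryos. Of 11 mesoderm markers 8 had lower means, with a median change of -0.26, and the summed level ran from 14.84 to 15.03 in Gam1 embryos and from 14.81 to 15.18 in water embryos. Lower means were also found for 6 of 6 epidermis, 9 of 13 endoderm, 2 of 3 notochord and 3 of 3 blood and ventral markers at this stage. At early neurula the neural plate sum ran from 15.06 to 15.24 in Gam1 embryos and from 15.25 to 15.40 in water embryos. It had been higher at early gastrula, from 16.37 to 16.56 in Gam1 embryos and from 16.42 to 16.62 in water embryos. From early to late gastrula in water embryos 5 of its 11 genes were called higher and 4 lower, beside 24.0% and 29.6% of all probe sets. The sum is therefore not a measure of the amount of neural plate. No marker list had a gene at the floor in both groups at late gastrula or early neurula. The part of the tissue makeup in the Hox differences was not tested.

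The genes with the profile most like each member over the 18 arrays were found among probe sets with 1 symbol, by Pearson's r, for the 4 members with a mean of at least 4 in some group. The course over the 3 stages is part of this likeness, and arrays of 1 group are not independent points, so no p is given. For hoxa9.S these were nle1.S (0.990), rps12.L (0.990), slc7a8.S (0.988), hoxc6.S (0.988) and kcnj15.L (0.988). For hoxb9 they were cldn1.S (0.993), pax6.L (0.993), zic5.S (0.991), mmp21.L (0.990) and rax.L (0.989), which include the neural and eye field regulators pax6.L and rax.L. For hoxd9 the list held meis2.L (0.963), hoxb7.S (0.962), hoxa2.S (0.961), rax.S (0.957) and ncam1.S (0.953). These are a Hox cofactor, a pair of Hox genes, an eye field gene and a neural plate marker. For hoxc10.L it held sox8.L (0.987), mmp3.L (0.985), vill.L (0.985), LOC398451 (0.984) and ventx1.1.L (0.982). The 4 members correlated with each other at 0.865 for hoxd9 with hoxc10.L to 0.949 for hoxa9.S with hoxc10.L.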

How the data were processed

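The authors labelled RNA of whole embryos with the GeneChip 3′ IVT Express kit, hybridized it to Xenopus laevis 2.0 GeneChip arrays, and used Bioconductor to take the .cel files to quantile-normalized expression on a log2 scale. The deposited table holds these values in log2. The background correction and the summary over probes are not given in the sources used. The table has 23701 probe sets, of which 71 Affymetrix controls were left out. Gene symbols came from the platform annotation, which gave 12258 probe sets 1 symbol, 228 several and 11144 none, with 2 symbols updated by gene ID.

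Gam1 and water arrays of each stage (n = 3 each) were compared with limma 3.58.1 in R 4.3.3 (lmFit, eBayes with trend, two-sided), because the methods' test of Gam1 against water names no pairing, with Benjamini-Hochberg adjustment over all 23630 probe sets and a threshold of 0.05. Courses were fitted over the 9 arrays of 1 treatment, and differences between stages over all 18. Adjusted p-values are limma's throughout. Arrays of the same number deviated together between Gam1 and water (r = 0.904 to 0.941 at early gastrula, 0.765 to 0.810 at late gastrula, 0.686 to 0.808 at early neurula), different numbers did not (-0.620 to -0.233), and the study ties its replicates to egg clutches, so the numbers pair the arrays; the blocked fit is given where it changes a call.

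Alternatives were the replicate block, a spread shared over stages, both together, no trend, a mean of at least 4 or 6, a floor of 3, a second quantile normalization, median centring, the methods' t-test, and leaving out arrays or pairs in turn. The fits were tested on simulated data. The members and lists were chosen with earlier results of these data known. Every member is named; of each list, genes were named from the 3 with the smallest unadjusted p per stage, and the measured Cdx genes. A gene with several probe sets is represented in lists by the one with the highest mean. Python 3.11.15, pandas 2.3.3 and matplotlib 3.10.9 made tables and figures.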

Additional observations from a re-analysis of the deposited data

How the results depend on the processing

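No posterior Hox gene was called lower after adjustment at late gastrula or early neurula in the unpaired fit (0 of 6 at each). The fit over all stages with the replicate block called 1 at late gastrula, beside 2.2% of all probe sets. At early neurula this fit called 1, beside 3.47%, and the fit over all stages without the block called 1, beside 0.102%. At an unadjusted p under 0.05 the members lower at late gastrula numbered 0 in the unpaired fit, beside 2.42% of all probe sets. They were 1 with the replicate block (7.76%), 2 over all stages (2.47%) and 3 over all stages with the block (12.3%). Without both arrays of replicate 1 they were 2 with the replicate block (6.47%). The unpaired fit without these arrays, an alternative chosen after seeing the data, gave 1 (2.28%). At early neurula the members lower at an unadjusted p under 0.05 numbered 2, beside 3.22% of all probe sets. There was 1 with a mean of at least 4 (hoxd9, with 4 members tested, 3.43%) and with a floor of 3 (hoxd9, 3.09%). A mean of at least 6 gave 1 (hoxb9, with 3 members tested and neither hoxd9 nor hoxa11.S among them, 3.72%). The methods' t-test gave 1 (hoxa11.S, 3.35%), and the replicate block gave 4 (8.49%). For the course in water embryos, the 3 members higher at late gastrula, beside 24.0% of all probe sets, became 1 with a floor of 3, beside 23.1%. The 2 higher at early neurula became 1 with a floor of 3, 4 with the replicate block and 5 over all stages. They were also 5 with the block and without water late gastrula replicate 1, an alternative also chosen after seeing the data. The shares of all probe sets higher were 4.09% in the unpaired fit, 3.85% with a floor of 3 and 6.83%, 6.91% and 6.02% in the last 3. For Gam1 embryos the 2 members higher at late gastrula, beside 22.7% of all probe sets, became 1 with a floor of 3, beside 21.8%. With a mean of at least 6 over all arrays of a course no member was left, so that alternative gave no value there. Counts over the all-stage fits rest on 1 spread for stages that differ in spread, as given above.

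Leaving out 1 array or 1 pair in turn gave 0 to 1 member lower unadjusted at early gastrula, beside 0.284% to 3.52% of all probe sets. It gave 0 to 2 at late gastrula, beside 1.48% to 6.47%, and 1 to 4 at early neurula, beside 1.96% to 6.44%. In water embryos 3 to 4 and 0 to 5 members were higher in the 2 steps, beside 21.1% to 23.5% and 0.567% to 6.42%. In Gam1 embryos these were 1 to 2 and 2 to 3, beside 19.8% to 22.0% and 0.978% to 5.55%. The adjusted counts of members lower in Gam1 embryos were 0 to 0, beside 0.0%. For all 3 differences between stages they were 0 to 0, beside 0 to 38 of 23630 probe sets. Of the changes where the mean of a group reached 3, that of hoxc10.L turned sign in this way. It ranged from -1.55 to 0.27 at late gastrula and from -0.56 to 0.23 at early neurula. So did the difference of the effects between the 2 stages, from -0.030 to 0.94 for hoxa9.S, -0.60 to 0.96 for hoxb9, -0.72 to 0.30 for hoxd9 and -0.40 to 1.42 for hoxc10.L. No other alternative turned the direction of such a change, scaling by a second quantile normalization or by the median included. At early gastrula, where the members lay at or near the floor, hoxd9 turned from higher to lower without both arrays of replicate 1. The cause of these differences was not tested.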
